A study of Oncorhynchus mykiss with 6 samples.

Results

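miR-146 is a vertebrate miRNA family of innate immunity. In mammals transcription of its member miR-146a is induced by NF-kB after Toll-like receptor or cytokine signalling. The mature miR-146a represses IRAK1 and TRAF6, signalling proteins of the same pathway, so that it is known as a negative feedback regulator of inflammation. As in most miRNA hairpins, a 5p and a 3p strand can be cut from the same precursor, and the seed, bases 2 to 8 of the mature strand, is the main determinant of which transcripts are bound. All 12 of 1427 sequences in the deposited miRNA table whose name holds miR-146, of any letter, arm, length variant or fish prefix, are described here. They came from small RNA sequencing of rainbow trout liver (Oncorhynchus mykiss, strain given as Walbaum, wild type, juvenile). The 6 libraries comprised 3 from control fish, numbered 3, 4 and 6, and 3 from fish fasted for 4 days, numbered 3, 4 and 5. The labels do not describe how the controls were fed, nor whether a library stands for 1 fish or a pool, so p-values rest on the spread among these libraries, part of which may be technical. Where 6 values are listed, they follow the order control 3, 4, 6 and fasted 3, 4, 5. The comparison asks whether a short fast alters the liver miRNAs, here those of the miR-146 family.

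The table's counts came to between 982844 and 4203708 per control library and between 737686 and 1432592 per fasted library, which is 45.0 to 61.0% of the mappable reads in control and 15.1 to 47.8% in fasted liver. Levels are given as CPM, counts relative to a common library size that TMM scaling corrects for composition. The TMM factors were 0.882, 0.834 and 0.762 for the control libraries and 1.64, 0.898 and 1.21 for the fasted ones. Every fasted factor lay above every control factor. Compared with library totals, TMM thus lowered fasted CPM relative to control CPM for every row and sum, so the choice of scaling matters for every level. The hepatocyte markers miR-122, miR-192 and miR-194 held 36.6 to 44.2% of the counts in all 6 libraries, as the liver label requires.

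The sequences below are those on which the results turn, printed 5′ to 3′ as DNA letters from the deposited table, with the seed in capitals. The first pair are the main 5p strands, the next pair carry 1 more base at the 5′ end, the fifth is the 5p row named miR-146b, and the last 4 are 3p strands.
ssa-miR-146a-5p: tGAGAACTgaattccatagatgg
ssa-miR-146d-5p: tGAGAACTgaattccaagggtt
dre-miR-146a_L+1: cTGAGAACtgaattccatagatgg
dre-miR-146b_L+1_1ss23GT: tTGAGAACtgaattccaagggtt
ssa-miR-146b-5p_1ss10AT: tGAGAACTgtagtccatagatgg
ssa-miR-146a-3p_R-2: aTCTATGGgctcagttcttct
ssa-miR-146a-3-3p: aTCTATGGattcagttcttct
ssa-miR-146b-3p_L-1_1ss19TA: tCTATGGActcaattctactt
ssa-miR-146d-3p_L+1R-2: gCCCATGGagctcagttctta

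The family's counts lay almost wholly on the 5p strand and on 1 seed. The miR-146a-5p and miR-146d-5p rows share their first 16 bases, and therefore the seed GAGAACT, and differ in the 3′ part. Together they held 98.8% of the 262716 counts of the family. The row named dre-miR-146b_L+1_1ss23GT contains the whole miR-146d-5p sequence preceded by 1 base, so despite its letter it is a longer form of that sequence. The dre-miR-146a_L+1 row contains the whole miR-146a-5p sequence in the same way. The extra base moves the seed by 1 position, to TGAGAAC, and the rows with this seed held 0.953% of the family's counts. Counted from the 5′ end, the row ssa-miR-146b-5p_1ss10AT differs from miR-146a-5p by A10T and T12G, both outside the seed, and held 1 count in all. Reads of closely related rows were divided between them in the deposited counts, so the split between near-identical rows is uncertain.

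Of the 12 rows, 5 averaged at least 10 counts per library, and the same 5 passed the filter on low counts and were tested; they held 99.97% of the family's counts. The other 7 rows summed to 85.3 counts over the 6 libraries, with 1 to 33 counts each. By mean share of the table, miR-146a-5p had rank 9 among the 1427 rows, miR-146d-5p stood at rank 43, the longer form of miR-146d-5p at 104, miR-146a-3p_R-2 at 189 and the longer form of miR-146a-5p at 319. Outside the family, 1 predicted small RNA, PC-3p-17780_28, had the seed GAGAACT, with 40 counts in all, and 4 rows spelled mir-146 in lower case, which the naming rule does not take, had 7.83 counts together.

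No miR-146 row passed the test between the groups. Of the 5 tested rows, 0 passed an adjusted p of 0.05 in edgeR's quasi-likelihood test, as did 0% of all 309 rows tested. DESeq2 called 1.29% of all rows and 0 of the 5. At an unadjusted p under 0.05 edgeR found 1 of the 5, miR-146a-5p, lower in fasted liver, against 3.56% of all rows in that direction and 8.41% in either. All 5 had a log2 fold change below 0, as did 49.8% of all rows, and their median was -0.51 against 0.01 over all rows. These rows are not independent, since they share reads, sequence or a precursor.

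miR-146a-5p was the most abundant member and the one nearest to a call. The control libraries held 27903, 34326 and 16493 CPM, the fasted ones 13160, 10173 and 17839 CPM. Control replicates 3 and 4 were the highest, while fasted replicate 5 lay above control replicate 6, so the groups overlapped. The means were 26241 ± 9032 and 13724 ± 3864 CPM (SD, n = 3). edgeR gave a log2 fold change of -0.94 with an SE of 0.37 and a 95% interval of -1.79 to -0.08, at an unadjusted p of 0.036 and an adjusted p of 0.533.

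**Figure D1:**
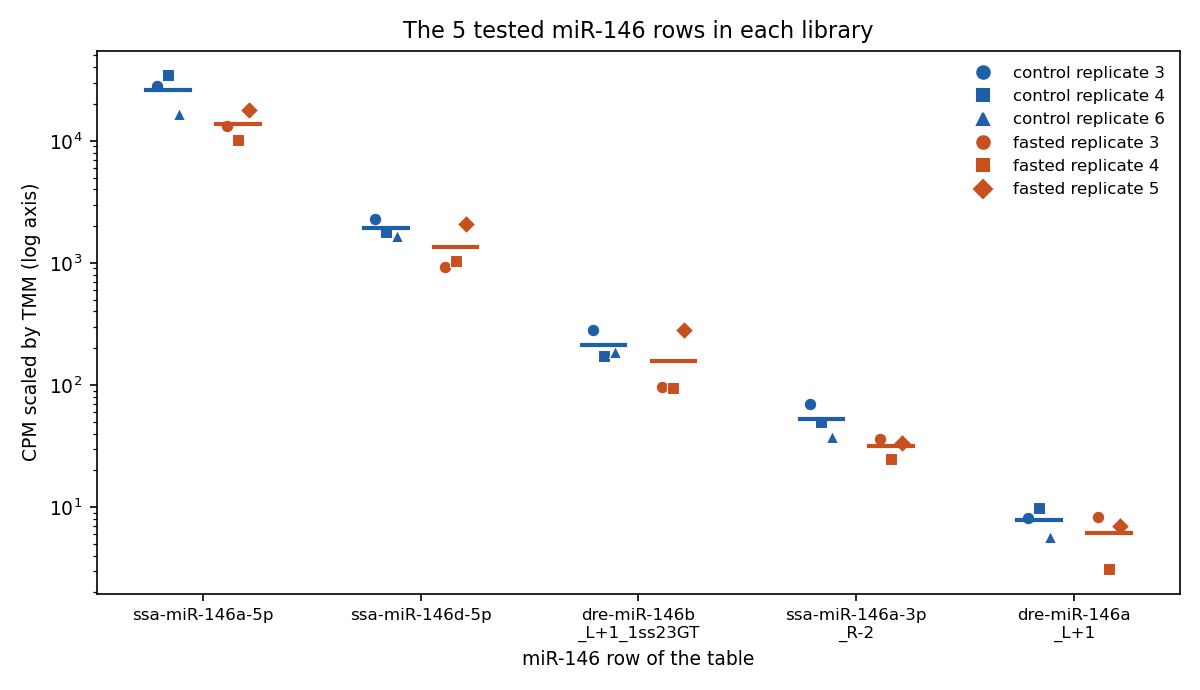
CPM scaled by TMM (log axis) of the 5 tested miR-146 rows in each of 3 control and 3 fasted libraries, with short bars at the group means. The rows span from miR-146a-5p, at 10173 to 34326 CPM, down to dre-miR-146a_L+1, at 3.11 to 9.77 CPM, and the groups overlap in every row except miR-146a-3p_R-2.

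The lower level of miR-146a-5p depended in size on the denominator. As a share of the table's counts it made up 2.46, 2.86 and 1.26% of the control libraries and 2.16, 0.912 and 2.15% of the fasted ones. On this scale both groups held a low library, control replicate 6 and fasted replicate 4, and fasted replicates 3 and 5 lay within the control range. The 95% Wilson interval of the lowest share was 0.897 to 0.928% and that of the highest 2.83 to 2.89%; such intervals cover counting error only, and the libraries of 1 group differ by far more.

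Counted per 1000000 mappable reads, miR-146a-5p stood at 11075, 16127 and 7654 in the controls, against 3247, 4358 and 7529 after fasting. Here every fasted library lay below every control library, though fasted replicate 5 and control replicate 6 were nearly level. Groups that did not overlap in this direction were found for 2 of the 5 miR-146 rows, miR-146a-5p and miR-146a-3p_R-2, and for 12.0% of all rows. The edgeR log2 fold change was -0.33 (adjusted p = 0.651) with library totals as the only scaling and -1.20 (adjusted p = 0.600) with mappable reads as library size. The median of all rows moved with the scaling, to 0.59 and -0.27 respectively, and relative to it miR-146a-5p stood at -0.92 and -0.93, against -0.95 with TMM.

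**Figure D2:**
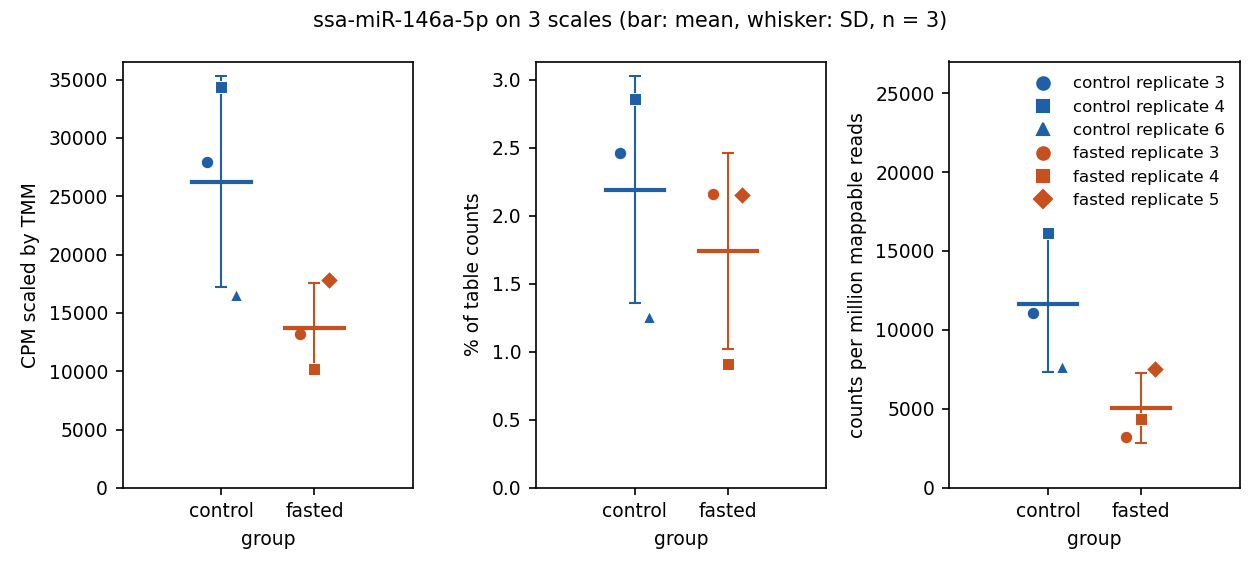
Level of ssa-miR-146a-5p in each library as CPM scaled by TMM, as a percentage of the table's counts and per 1000000 mappable reads, with the group mean and SD (n = 3). Control replicate 6 lies low among the controls on all 3 scales, and the groups separate only per 1000000 mappable reads, by 7654 against 7529.

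miR-146d-5p, the second main strand with the same seed, stood at 2297, 1807 and 1671 CPM in the controls, against 923, 1044 and 2101 CPM after fasting. Fasted replicates 3 and 4 were below all controls, and fasted replicate 5 was within the control range. The means were 1925 ± 329 and 1356 ± 648 CPM (SD, n = 3), with a fold change of -0.51 on the log2 scale (SE 0.40, 95% interval -1.43 to 0.42; adjusted p = 0.697 by edgeR), and 0.055 with library totals as the only scaling. Single libraries moved it widely, to -0.22 without fasted replicate 3 and -0.82 without fasted replicate 5, with edgeR adjusted p-values of 0.954 and 0.306. Its longer form, dre-miR-146b_L+1_1ss23GT, stood at 281, 173 and 186.5 CPM in the controls, against 95.9, 94.9 and 282 CPM after fasting. Its pattern was that of miR-146d-5p, with fasted replicate 5 at the control maximum, and its log2 value was -0.44 (SE 0.50; adjusted p = 0.789 by edgeR), or 0.13 with library totals. Leaving out single libraries moved this value too, to -0.11, -0.19 and -0.20 without fasted replicate 3, fasted replicate 4 and control replicate 3 in turn, and to -1.02 without fasted replicate 5, with edgeR adjusted p-values between 0.282 and 0.987.

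The 3p strand of miR-146a, the minor strand of this precursor, was the only tested member whose groups did not overlap in CPM. The row miR-146a-3p_R-2 measured 70.4, 50.1 and 37.3 CPM in the controls, against 36.4, 24.9 and 33.4 CPM after fasting. All fasted libraries were below all controls, but control replicate 6 and fasted replicate 3 differed by less than 1 CPM. A lower, non-overlapping fasted group was thus seen in 1 of the 5 rows, against 8.74% of all rows. The means were 52.6 ± 16.7 and 31.5 ± 5.95 CPM (SD, n = 3), with a fold change of -0.74 on the log2 scale (SE 0.38, 95% interval -1.61 to 0.13; adjusted p = 0.606 by edgeR). As a share of the table the groups overlapped, with a log2 fold change of -0.13 under library totals. Without control replicate 3, the highest, the TMM-scaled value was -0.47 (adjusted p = 0.887 by edgeR).

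The least abundant tested row, dre-miR-146a_L+1, rested on 30.3, 7.50 and 18.0 counts in the controls and on 10.3, 4.25 and 9.50 counts after fasting. In CPM the groups overlapped widely (7.84 ± 2.07 and 6.11 ± 2.68; SD, n = 3). On the log2 scale the fold change was -0.31 (SE 0.51; adjusted p = 0.900 by edgeR), and 0.31 with library totals. Leaving out single libraries gave values from -0.52, without control replicate 6, to -0.02, without fasted replicate 4; it was -0.51 without fasted replicate 3 and -0.17 without control replicate 4.

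The whole family, which sums the 12 rows, reached 30567, 36372 and 18399 CPM in the controls, against 14232, 11347 and 20276 CPM after fasting. Fasted replicate 5 exceeded control replicate 6, as for miR-146a-5p, which makes up most of the sum. Its share of the table was 2.38% ± 0.861 for the controls and 1.93% ± 0.795 after fasting (SD, n = 3), with overlapping groups.

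Ratios within a library do not depend on the scaling, and 3 of them were tested by exact permutation of the libraries (two-sided), which for 3 libraries against 3 cannot give a p below 0.1. The 5p strands outnumbered the 3p strands 394, 640 and 436 to 1 in the controls, against 318, 378 and 435 to 1 after fasting. On the log2 scale this was 8.90 ± 0.368 and 8.55 ± 0.226 (SD, n = 3; difference -0.36, exact permutation p = 0.2, adjusted p = 0.6 over the 3 ratios), with overlapping groups. Control replicate 4 was the highest, and the difference was -0.15 without it and -0.24 without fasted replicate 3. With only the rows averaging at least 10 counts, which leaves 1 row of the 3p strand, it was -0.19 (exact permutation p = 0.6).

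The 5p counts of miR-146a exceeded those of the other letters by 10.8, 17.3 and 8.88 times in the controls, against 12.9, 8.93 and 7.48 times after fasting. The log2 ratio was 3.57 ± 0.495 for the controls and 3.25 ± 0.402 after fasting (SD, n = 3; difference -0.32, exact permutation p = 0.6, adjusted p = 0.6). Without control replicate 4, again the highest, the difference was -0.04, without fasted replicate 5 -0.14, and without control replicate 6 or fasted replicate 3 -0.52 and -0.54. The most abundant row held 92.0% ± 2.37 of the family's 5p counts in the controls and 90.3% ± 2.31 after fasting (SD, n = 3; exact permutation p = 0.5, adjusted p = 0.6), a difference smaller than the spread between libraries and -0.411 percentage points without control replicate 4. It was -0.644 points without fasted replicate 5, -2.75 without control replicate 6 and -2.93 without fasted replicate 3, against -1.69 with all libraries. This share and the ratio of miR-146a to the other letters rest on nearly the same counts, so their tests are not independent.

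The 2 main 5p strands differed in how often the form with 1 extra 5′ base was seen. For the miR-146d-5p sequence the longer form amounted to 12.2, 9.59 and 11.2% of the shorter in the controls and to 10.4, 9.13 and 13.4% after fasting. For the miR-146a-5p sequence it amounted to 0.0293, 0.0267 and 0.0342% and to 0.0644, 0.0325 and 0.0370% in the same order. In each of the 6 libraries the first percentage was 162 to 418 times the second, and neither separated fasted from control. Among the 13 other pairs of table rows that differ by 1 extra 5′ base, with a shorter row averaging at least 10 counts, the median was 0.225%, with a middle range of 0.0994 to 0.956% and extremes of 0.0112 and 87.1%. Rows without a listed longer form cannot enter such pairs, so the median and the ranks leave them out. Of the 15 pairs, sorted from the highest, the miR-146d pair had rank 3 and the miR-146a pair rank 14. This comparison was chosen after the values were seen and was not tested. A further row, the predicted small RNA PC-5p-25412_17, contains the same longer form plus further 3′ bases and had 8.50 counts in all.

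**Figure D3:**
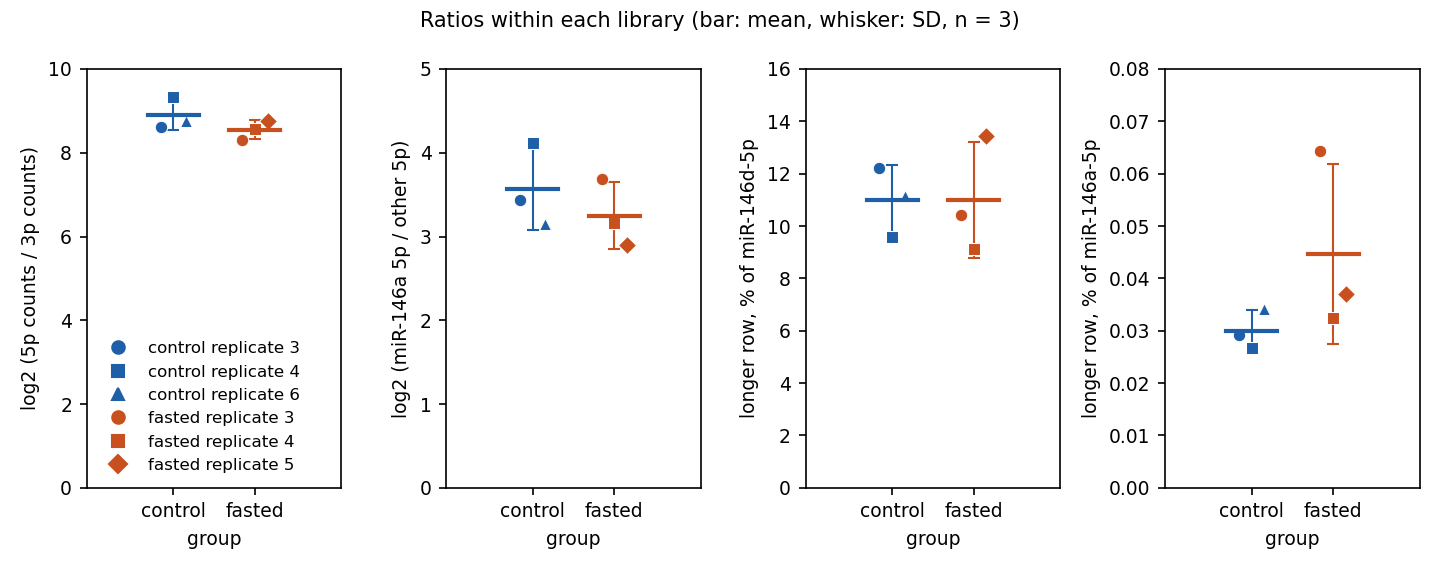
Ratios of miR-146 rows within each library, with the group mean and SD (n = 3): log2 of 5p over 3p counts, log2 of miR-146a over the other 5p strands, and the form with 1 extra 5′ base as a percentage of miR-146d-5p and of miR-146a-5p. The groups overlap in all 4 panels, and the longer form is near 11.0% for miR-146d-5p in both groups but at most 0.0644% for miR-146a-5p.

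The letters also differed in the balance of their arms. Over all libraries the miR-146a-5p row had 238777 counts against 546 of miR-146a-3p_R-2, and the miR-146d-5p row 20804 against 27 of miR-146d-3p_L+1R-2. The rows named miR-146b ran the other way, with 1 count in ssa-miR-146b-5p_1ss10AT and 33 in ssa-miR-146b-3p_L-1_1ss19TA, so that 2.94% of these counts were 5p (95% Clopper-Pearson interval 0.0744 to 15.3%, counting error only). This 5p row differs from the far more abundant miR-146a-5p row by only 2 bases, and the split of reads between such rows is uncertain. The arm balance of miR-146b is therefore uncertain beyond that interval. The miR-146b-3p row was present in every library, with 9, 2 and 5 counts in the controls and 3, 3 and 11 after fasting, the highest in fasted replicate 5. The miR-146b-5p row had 0 counts in 5 libraries, where 3 counts, the limit that a count of 0 allows, correspond to between 0.716 and 4.07 CPM of the unscaled table. The row dre-miR-146b_L+1_1ss23GT is not counted there, because its sequence is that of miR-146d-5p. The remaining 3p rows were ssa-miR-146a-3-3p, which differs from miR-146a-3p_R-2 by G9A and C10T and had 14.3 counts, and ssa-miR-146d-2-3p_L-2_2ss8GA22AG with 3 counts. The remaining 5p rows were ola-miR-146a-5p_L+2R-2 with 4 counts and ccr-miR-146a_R+3 with 3.

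The rows most like miR-146a-5p across the 6 libraries were not members of the family. By Pearson's r of log2 CPM over 6 libraries, among 304 other tested rows, they were dre-miR-301c-5p_R+1_2ss4CT9GA (r = 0.987), dre-miR-135a_1ss19TC (0.980) and fru-miR-126 (0.946), the last of an endothelial miRNA. The first rested on only 345 counts in all and the second on 94.3, against 18869 for fru-miR-126. These libraries share depth and composition differences, and the median r over all other rows was 0.07, with 5% of them above 0.867. fru-miR-126 measured 2124, 1841 and 1443 CPM in the controls, against 1240, 1009 and 1455 CPM after fasting, and its fold change was -0.55 on the log2 scale (SE 0.33; adjusted p = 0.606 by edgeR). Like miR-146a-5p, it had fasted replicate 5 just above control replicate 6. The row was picked by r over these same libraries, which includes the difference between the groups, so this likeness is not a separate result. The other tested miR-126 rows differed, with r = 0.914 for ccr-miR-126-3p_L-1R+1 and -0.119 for ipu-miR-126b. Rows of stromal miRNAs ran from 0.675 for ola-miR-199a-5p_L-2R+4 to -0.907 for ola-miR-145_L+1R+3. Among the members, r with miR-146a-5p was 0.858 for its 3p strand, 0.770 for its longer form, 0.761 for miR-146d-5p and 0.660 for the longer form of the latter, and 17, 31, 33 and 47 other rows had a higher r.

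**Figure D4:**
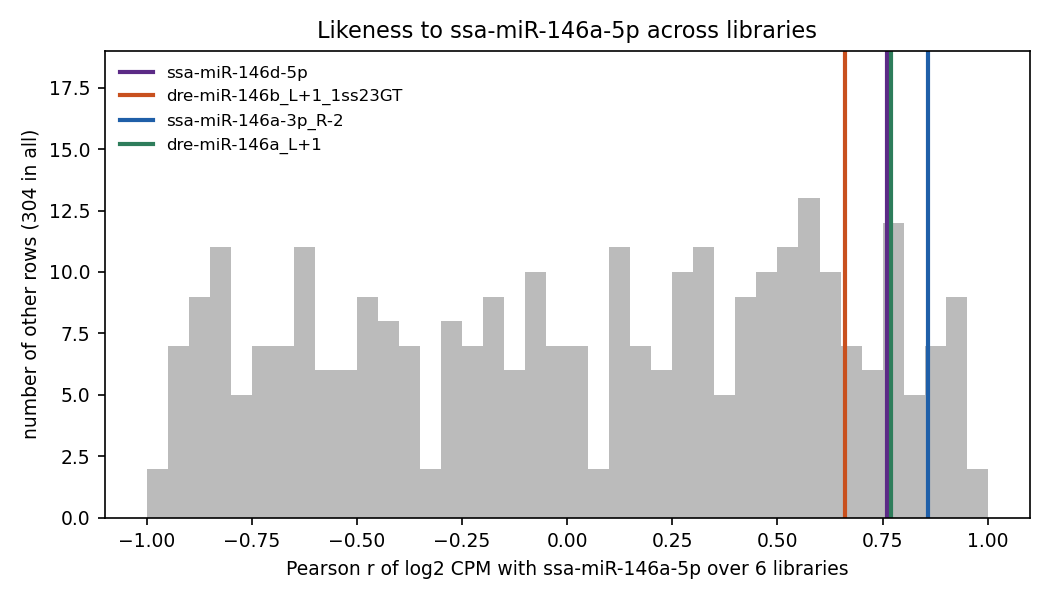
Histogram of Pearson's r of log2 CPM with ssa-miR-146a-5p over 6 libraries for the 304 other tested rows (number of rows on the y axis), with vertical lines at the other 4 miR-146 rows. The 4 lines lie between 0.660 and 0.858, and 17 to 47 other rows lie above each of them.

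Other miRNAs known in NF-kB, Toll-like receptor or interferon responses did not share 1 direction. Of the 45 rows of miR-155, miR-132, miR-212, miR-9, miR-21, miR-147, miR-187, miR-223, miR-462 and miR-731, 12 were tested, 5 above 0 and 7 below. Over all rows 49.8% lay below 0. The list's median was -0.35 on the log2 scale, against 0.01 over all rows. All tested rows of miR-21 lay below 0 and all those of miR-462 above, and rows of 1 family are not independent. With library totals as the only scaling the list's median was 0.25 and that of all rows 0.59, and with TMM it was -0.12 without control replicate 6 and -0.20 without control replicate 3. edgeR called 0 of them in either direction, and DESeq2 0. fru-miR-21, another miRNA induced in inflammation, measured 6209, 9835 and 4014 CPM in the controls, against 2640, 2993 and 6023 CPM after fasting. Control replicate 6 was again the lowest control and fasted replicate 5 the highest fasted library, and the log2 value was -0.78 (SE 0.46; adjusted p = 0.606 by edgeR).

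ssa-miR-155-5p, a miRNA of activated leucocytes, was scarce, at 11.7 ± 3.95 CPM in the controls and 10.02 ± 3.84 CPM after fasting (SD, n = 3; log2 fold change -0.24, adjusted p = 0.903 by edgeR). dre-miR-9-5p, induced by NF-kB in human monocytes, had a log2 fold change of -0.73 (SE 0.69). Values above 0 were found for fru-miR-223_R+1, a myeloid miRNA, at 0.41 (SE 0.45), and for the fish interferon-responsive pair ssa-miR-462a-5p_R-1 at 0.24 (SE 0.42) and ssa-miR-731-5p at 0.40 (SE 0.41). The groups overlapped in each of these 6 most abundant rows of their families. The 3p strands of the interferon-responsive pair, named after their values were seen, lay far apart, ssa-miR-462a-3p at 1.28 and ssa-miR-731-3p at -1.05. The former was the 1 row of the list's 12 tested rows at an unadjusted edgeR p under 0.05, against 8.41% of all rows in either direction. The edgeR adjusted p-values of these 3p strands were 0.504 and 0.612. No row of miR-132, miR-212 or miR-187 had enough counts to be tested, and miR-147 had 0 rows.

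**Figure D5:**
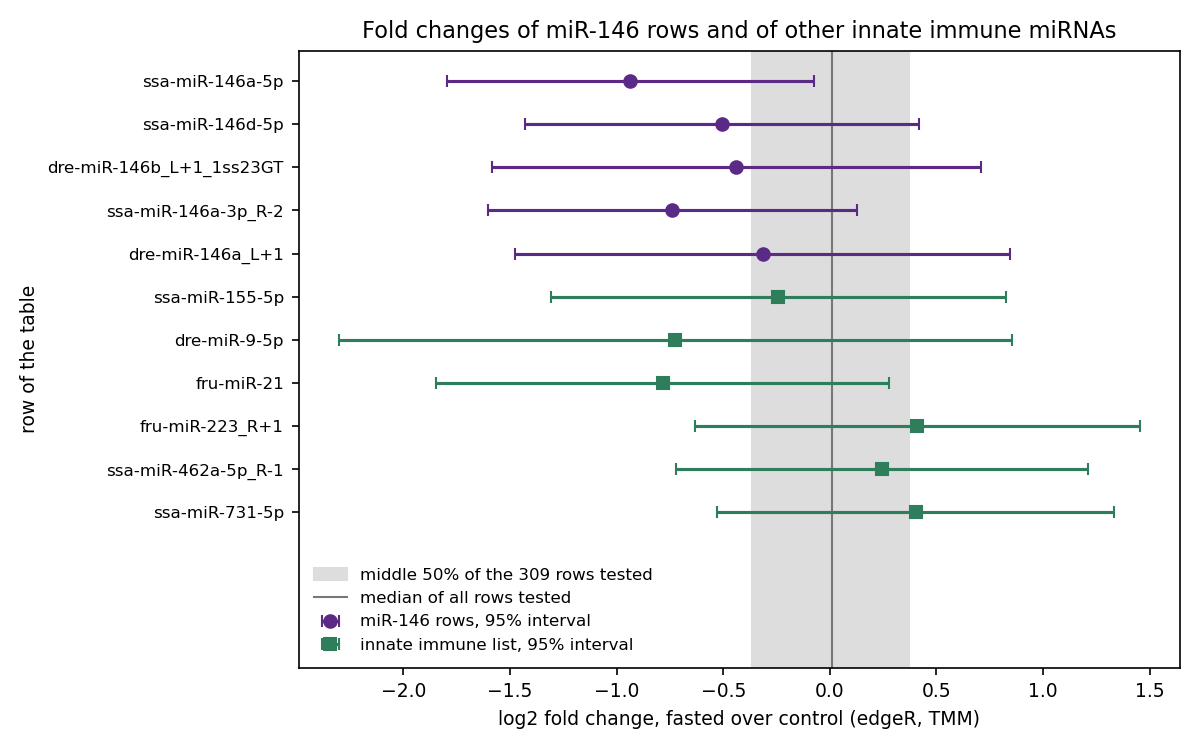
Log2 fold change of fasted over control with its 95% interval (edgeR, TMM) for the 5 tested miR-146 rows and for the most abundant tested row of 6 other innate immune families, with the middle 50% and the median of all 309 rows tested. The miR-146 rows lie between -0.94 and -0.31 and the other rows between -0.78 and 0.41. In this fit miR-146a-5p alone has an interval, -1.79 to -0.08, that does not reach 0, and under some other settings its interval includes 0.

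Immune and vascular cells of the liver also carry miR-146, and in bulk tissue fewer cells of a type and less RNA per cell cannot be told apart. The leucocyte markers miR-142, miR-150, miR-155 and miR-223 summed to 1075 to 2134 CPM in the controls and 794 to 2215 CPM after fasting, with overlapping groups. Of their 6 tested rows 4 lay above 0 and 2 below, and the median was 0.28 on the log2 scale. The endothelial and stromal markers miR-126, miR-199, miR-214, miR-143 and miR-145 summed to 65890 to 82622 CPM in the controls and 35176 to 63155 CPM after fasting, without overlap. Among all rows tested, 8.74% had a lower, non-overlapping fasted group in CPM, but that share is of single rows and not of sums of rows. Of the 16 tested rows of these markers 12 lay below 0 and 4 above (median -0.10), against 49.8% of all rows below 0. These 16 rows are length variants and arms of the families named, so they are not independent. As a share of the table these markers overlapped, at 5.17 to 6.89% and 5.66 to 6.64%. The hepatocyte markers miR-122, miR-192 and miR-194 summed to 414755 to 513382 CPM in the controls and 269741 to 431797 CPM after fasting, with overlap. Of their 10 tested rows 6 lay below 0 (median -0.19). miR-451 and miR-144, of erythrocytes, summed to 2254 to 4290 CPM in the controls and 1263 to 7395 CPM after fasting, highest in fasted replicate 5, and miR-486 had 0 rows. The epithelial markers summed to 1209 to 2637 and 1347 to 1703 CPM and the muscle markers to 13.9 to 51.0 and 9.73 to 106 CPM. The part of any of these cell types in the miR-146 levels was not tested.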

How the data were processed

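Per the labels' protocols, Trizol was used for liver RNA and an Illumina TruSeq RNA kit for the libraries. Per the file headers, reads under 15 nt and over 32 nt after adaptor removal were set aside. The submitters' processing notes name Bowtie 1.1.1; for the counting program and genome build, nothing is stated in these sources. The authors deposited expected counts (14.4 to 20.8% of a library's values not whole, tolerance 1e-06), a normalized signal (expected count divided by a library size parameter, per the file headers) and read counts per library.

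Expected counts were rounded and all 1427 rows entered the filter (filterByExpr, minimum count 10, minimum total 15), which kept 309. The main test was the quasi-likelihood F test of edgeR 4.0.16 (R 4.3.3; TMM scaling and no covariate), with Benjamini-Hochberg adjustment over all 309 rows and a threshold of 0.05. DESeq2 1.42.0 and limma 3.58.1 were alternatives, the latter also on log2(normalized signal + 1). The SE of an edgeR fold change was derived from the log2 fold change and its F statistic, and its interval rests on edgeR's moderated degrees of freedom. DESeq2 intervals use the normal distribution, and limma intervals are those the program gives. Ratios had 0.5 added to each sum of counts and were tested with scipy 1.17.1. Likeness used log2 CPM with a prior count of 2. Simulated data with known changes were run through the edgeR step as a self-test, and no result here rests on them. Rows averaging at least 10 counts were described singly, with the most abundant tested row of each other family and the 3 rows most like miR-146a-5p. Arms missing from a name were read from the position of the seed. The family and the lists were chosen with earlier results of these data known. No 2 libraries were duplicates (chi-square per degree of freedom at least 149.8), and the replicate numbers were not taken to pair libraries.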

Additional observations from a re-analysis of the deposited data

How the results depend on the processing

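Under the 17 alternatives 0 miR-146 rows were called. Calls over all rows were 0 in the main edgeR fit and under its other scalings, and limma called 0 by either route. DESeq2 called 4 rows. Without the count filter edgeR called 11 of 1325 rows (88 at an unadjusted p under 0.05, against 26 of 309 rows with the filter). When single libraries were left out it called 0 to 1, the 1 without control replicate 3. None of the rows called were miR-146. The log2 fold change of miR-146a-5p ran from -1.42 to -0.33 (edgeR, DESeq2 or limma adjusted p 0.219 to 0.898), and from -1.18 to -0.69 over the fits leaving out a library. The -1.42 came from the fit with the replicate number as a block, which rests on replicates 3 and 4 only. With library totals as the only scaling, which moved the median of all rows to 0.59, the sign turned for miR-146d-5p (0.055), dre-miR-146b_L+1_1ss23GT (0.13) and dre-miR-146a_L+1 (0.31), the fasted minus control log2 difference of the family's sum was -0.33 in place of -0.88, and the innate immune median was 0.25 in place of -0.35. The cause was not tested beyond that shift.

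Both groups hold a replicate 3 and a replicate 4, but same-numbered libraries deviated together for 3 (r = 0.44 across rows) and not for 4 (-0.04). Libraries of different numbers were not compared in this way, so these values cannot show whether the numbers pair libraries. Replicate 5 exists only in the fasted group and replicate 6 only in the control group. With the replicate number as a block, these libraries therefore do not bear on the fold change, which rests on replicates 3 and 4 alone. Fasted replicate 5 and control replicate 6 are also the libraries by which the groups of miR-146a-5p overlapped in CPM. In this fit edgeR called 0 rows and miR-146a-5p had a log2 fold change of -1.42 (adjusted p = 0.219). The values of miR-146d-5p, its longer form, miR-146a-3p_R-2 and dre-miR-146a_L+1 were then -1.05, -1.21, -0.98 and -0.60 (adjusted p 0.215 to 0.627). In the main fit the median 95% interval of a row reached 1.00 to either side on the log2 scale, wider than the fold changes of the tested miR-146 rows. The interval of miR-146a-5p, -1.79 to -0.08, was narrower. It included 0 with library totals, upper quartile scaling or mappable reads as library size. The same held for limma on the normalized signal and with rows that share a mature name summed. The interval also included 0 without control replicate 3, control replicate 4, fasted replicate 3 or fasted replicate 4. Under the other alternatives, among them the fits without control replicate 6 or fasted replicate 5, it stayed below 0. These intervals are not adjusted for the number of rows and give no limit of detection. With 3 libraries a group, a row that was not called is not shown to be unchanged.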
